A study of Mus musculus with 6 samples.

Results

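Expression of the BAFF and APRIL system was examined in spleens of NOD.B10 and BL/10 females. The 5 genes were listed by name, as the ligands Tnfsf13b (BAFF) and Tnfsf13 (APRIL) and the receptors Tnfrsf13b (TACI), Tnfrsf13c (BAFF-R) and Tnfrsf17 (BCMA). They are 5 of the 47729 genes in the table, and all 5 passed the filter on low counts and were among the 15330 genes tested. RNA-seq was performed on 3 NOD.B10 spleens (NOD.B10Sn-H2b/J, a strain that develops a disease like primary Sjögren's syndrome, pSS) and on 3 spleens of BL/10 (C57BL/10) controls. All mice were females, and no treatment is recorded. The sample records give an age of 26 weeks for the 3 NOD.B10 libraries and for BL/10 replicate 1, and of 36 weeks for BL/10 replicates 2 and 3, whereas the study's methods describe age-matched mice of 26 weeks. The strains carry the same H2 haplotype and differ across the rest of the genome, so a difference between them cannot be assigned to a single locus or to disease. The records disagree on the strain of all 6 libraries, because the title and the strain entry give one strain and the description and column name the other. Strains follow the column names here, and every direction below would be reversed under the titles.

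BAFF and APRIL are cytokines of the TNF superfamily that are made largely by myeloid, dendritic and stromal cells. BAFF binds BAFF-R, TACI and BCMA, whereas APRIL binds TACI and BCMA and also heparan sulfate chains of syndecans. In the spleen, BAFF-R carries the survival signal of mature B cells through TRAF3 and the non-canonical NF-kB pathway, TACI is found on B cells and is highest on marginal zone B cells, and BCMA is found on plasma cells. Raised BAFF has been linked to autoimmunity with B cell activation, including Sjögren's syndrome.

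Total counts were between 15662712 and 18298451 reads per library. Levels are given as CPM, which are counts scaled to library sizes normalized by the TMM method of edgeR. The lowest level treated as detected, 3 reads, was 0.163 to 0.201 CPM, a limit that covers counting error only. BL/10 replicate 1 stood apart from the other BL/10 libraries. In a chi-square test over genes, where a value of 1 per degree of freedom is counting error alone, it reached 63.8 and 81.9 against replicates 2 and 3, which reached 19.7 against each other. Its 11 pancreas acinar genes summed to 10964 CPM, and the lowest BL/10 library to 105 CPM. Its 12 B cell markers summed to 5770 CPM, and those of replicates 2 and 3 to 3307 and 3621 CPM. All 12 B cell markers were tested in these spleens.

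None of the 5 genes passed edgeR's quasi-likelihood test between the strains. The number with an adjusted p under 0.05 was 0 of 5, beside 17.3% of all tested genes, and 0 of 5 had an unadjusted p under 0.05, beside 34.2%. DESeq2 and limma-voom (the latter with a quality weight for each library) also called 0 of 5, adjusted or not. After adjustment they called 17.4% and 21.8% of the genes each tested. Without BL/10 replicate 1, edgeR called 1 of 5 (Tnfrsf13b), beside 26.3% of all tested genes in that fit. Here and below, fits without BL/10 replicate 1 compare NOD.B10 libraries recorded at 26 weeks with BL/10 libraries recorded at 36 weeks alone. Strain and recorded age cannot be told apart in those fits. For each of the 5 genes the NOD.B10 and BL/10 libraries overlapped, whereas they did not overlap for 38.0% of all tested genes. The log2 fold changes (NOD.B10 minus BL/10) were between -0.26 for Tnfrsf17 and 0.28 for Tnfrsf13b, and the median of all tested genes was 0.00060. The 95% intervals still allowed differences in both directions for each gene, so equal expression was not shown.

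**Figure D1:**
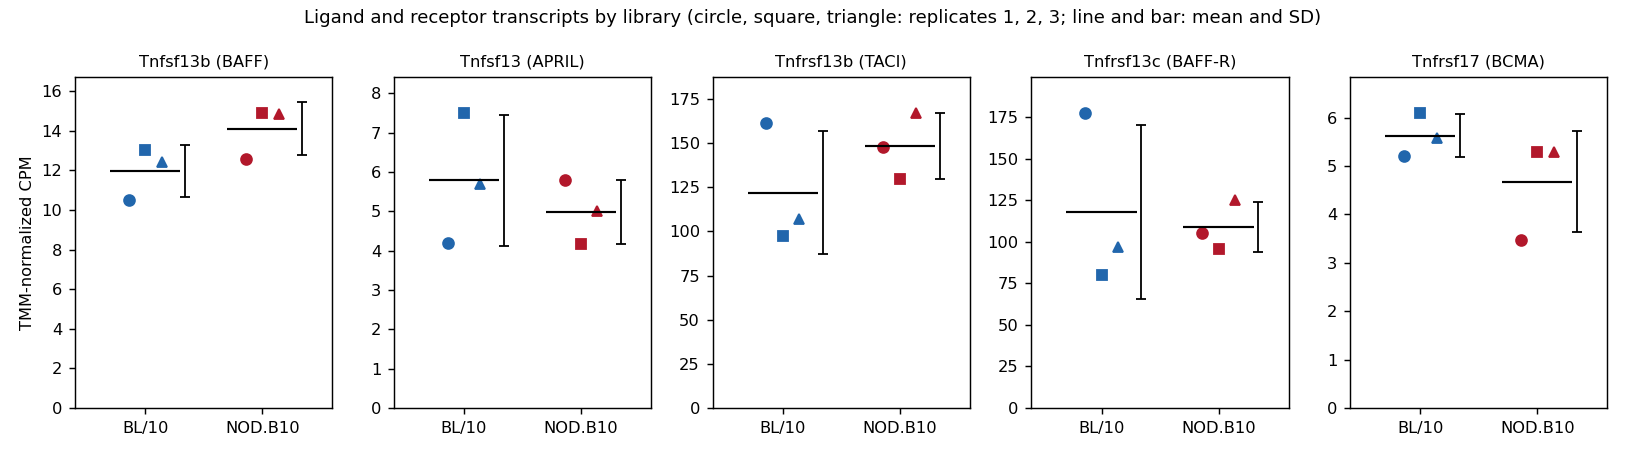
TMM-normalized CPM of the 5 genes in each library, 1 panel per gene with its own axis from 0 (blue, BL/10, red, NOD.B10, symbols, replicates 1, 2 and 3, lines and bars, mean and SD of 3). The strains overlap in every panel, and BL/10 replicate 1 (blue circle) is at 178 CPM for Tnfrsf13c, with BL/10 replicates 2 and 3 at 79.8 and 96.7 CPM.

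Tnfsf13b (ENSMUSG00000031497) encodes BAFF and lies on chromosome 8 from 10006467 to 10039072 of GRCm38. It was read at 12.6, 14.9 and 14.8 CPM in NOD.B10 replicates 1, 2 and 3, and at 10.5, 13.0 and 12.4 CPM in the BL/10 replicates. NOD.B10 replicates 2 and 3 were the highest of the 6 libraries, and NOD.B10 replicate 1 lay between BL/10 replicates 2 and 3. The means were 14.1 ± 1.34 CPM for NOD.B10 and 11.98 ± 1.33 CPM for BL/10 (SD, n = 3 for each). The log2 fold change was 0.24 ± 0.13 (SE), at an edgeR adjusted p of 0.238, which is a 1.18-fold higher level with a 95% interval from 0.956-fold to 1.45-fold. The log2 fold change was 0.15 without BL/10 replicate 1 and 0.44 without the 2 libraries recorded at 36 weeks, and neither value passed the threshold (edgeR adjusted p = 0.460 and 0.237).

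RefSeq (GRCm38.p6) lists a pair of transcription start sites for Tnfsf13b. The window of the downstream start held a match to the interferon-response repeat (GAAA, any 2 bases, then GAAA), which was found on either strand in 3.44% of 32851 mouse promoter windows of 300 bases (250 before to 50 after each start). It is shown because BAFF is known as an interferon-induced gene. The 30 bases before the downstream start (chr8:10006603-10006632, plus strand), with the match in capitals, are these.
Tnfsf13b: atcttacaaaaactGAAAGTGAAAtgcgga
The window of the upstream start held no match to this or to the other motifs searched, which are named with the receptors below. A match describes the letters of the reference and not binding in these spleens.

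Tnfsf13 (ENSMUSG00000089669), the APRIL gene, lies on chromosome 11 from 69682846 to 69685784 of GRCm38, on the minus strand. It was read at 5.80, 4.18 and 5.0 CPM in the NOD.B10 replicates and at 4.18, 7.51 and 5.68 CPM in the BL/10 replicates. BL/10 held both the highest library and, level with NOD.B10 replicate 2, a library at the low end. The log2 fold change was -0.21 ± 0.24 (SE), at an edgeR adjusted p of 0.583, an 0.867-fold level with a 95% interval from 0.588-fold to 1.28-fold. Its direction rested on BL/10 replicate 2, since the log2 fold change was 0.0042 without that library.

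The counts of Tnfsf13 describe only part of the gene. Tnfsfm13, the read-through gene that joins Tnfsf12 (TWEAK) to Tnfsf13 and encodes the fusion ligand TWE-PRIL, covers 983 of the 1637 exon bases of Tnfsf13 on the same strand, or 60.0%. By the counting settings in the table's header, reads that overlap exons of more than 1 gene were left out. The 654 bases that no other gene shares are bases 1 to 654 of the first exon, which ends at base 756 when counted from the start of the gene. The count of Tnfsf13, between 68 and 112 reads per library, therefore reads the first exon, and the exons shared with Tnfsfm13 were not measured. Tnfsfm13 itself had 9 to 14 counts in NOD.B10 libraries and 7 to 25 in BL/10 libraries (-0.34 ± 0.42 on the log2 scale, edgeR adjusted p = 0.607). Tnfsf12, the upstream gene for the ligand TWEAK, was at 9.71 ± 0.942 CPM for NOD.B10 and 8.63 ± 0.931 CPM for BL/10 (SD, n = 3 for each). Its log2 difference was 0.17 ± 0.14 (SE, edgeR adjusted p = 0.434).

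Tnfsf13os, a transcript on the opposite strand of the same locus, shares 221 of the exon bases of Tnfsf13. It had 3, 8 and 8 counts in the NOD.B10 replicates and 20, 28 and 33 counts in the BL/10 replicates. The libraries of the strains did not overlap, and its log2 fold change was -2.08 ± 0.40 (SE), at an edgeR adjusted p of 0.0122. NOD.B10 replicate 1 was at the lowest level treated as detected (3 reads), so the size of this change rests on counts near that limit. The gene was chosen after its values were seen, and its call was lost without the 2 libraries recorded at 36 weeks (edgeR adjusted p = 0.177). The counting used no strand, so reads from either strand of its unshared bases were counted alike.

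**Figure D2:**
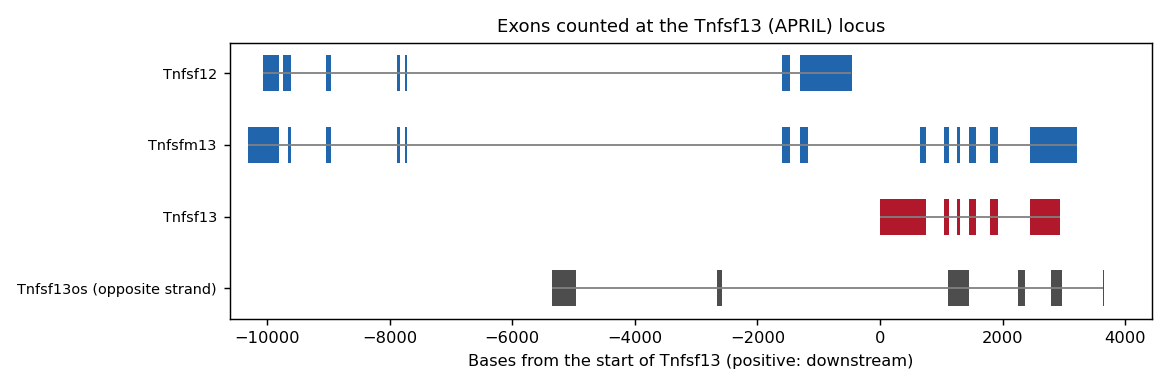
Exons counted for Tnfsf12, Tnfsfm13, Tnfsf13 and Tnfsf13os (boxes) against the distance in bases from the start of Tnfsf13, with positive values downstream. The exons of Tnfsf13 after the first all lie under exons of Tnfsfm13, and only bases 1 to 654 of the first exon are free of other genes.

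Markers of cell types known to make these ligands were compared next. Of the 10 neutrophil markers, 9 were lower in NOD.B10 (8.22% of all tested genes were lower), and their summed level was 2157 to 2497 CPM in NOD.B10 libraries and 6122 to 12789 CPM in BL/10 libraries. Of the 10 macrophage markers, 2 were higher by edgeR (9.11% of all tested genes were higher) and 0 lower (8.22%). Their summed levels were from 6066 to 6819 CPM in NOD.B10 and from 5217 to 5472 CPM in BL/10. Dendritic cell markers were called in 0 of 8 genes by edgeR, beside 17.3% of all tested genes. At an unadjusted p under 0.05 there were 3, beside 34.2%, while DESeq2 called 1 (17.4% of its tested genes) and limma-voom 2 (21.8%). The summed levels of these markers overlapped, from 316 to 384 CPM in NOD.B10 and from 353 to 398 CPM in BL/10. Every marker of the neutrophil, macrophage and dendritic cell lists had counts in all libraries. Stromal markers were called in 0 of 5 tested genes by edgeR (1 at an unadjusted p under 0.05, 1 by DESeq2, 0 by limma-voom). The shares of all tested genes given with the dendritic cell markers apply here too. Relative to the macrophage markers, the log2 ratio of Tnfsf13b differed by -0.06 (exact permutation p = 0.9) and that of Tnfsf13 by -0.48 (exact permutation p = 0.1, the smallest possible, and 0.171 adjusted over the 12 ratios). The latter was -0.28 without BL/10 replicate 2. Relative to the dendritic cell markers the differences were 0.24 and -0.18 (exact permutation p = 0.2 and 0.6). The former was 0.12 without NOD.B10 replicate 2, and the latter ran from -0.34 without BL/10 replicate 1 to -0.04 without BL/10 replicate 2. Relative to the neutrophil markers the differences were 1.93 and 1.52 (exact permutation p = 0.1 for each, and 0.171 adjusted). The median log2 fold change of the neutrophil markers was -1.96, and those of Tnfsf13b and Tnfsf13 were 0.24 and -0.21. A gene at the same level in both strains would therefore also have a higher ratio to these markers in NOD.B10. The part of the cell makeup in the ligand values was not tested. In whole spleen, fewer cells of a type and less RNA per cell cannot be told apart.

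Tnfrsf13b (ENSMUSG00000010142) encodes TACI and lies on chromosome 11 from 61126755 to 61149372 of GRCm38. It was read at 148, 130 and 167 CPM in the NOD.B10 replicates and at 162, 97.6 and 107 CPM in the BL/10 replicates. The 3 NOD.B10 libraries lay above BL/10 replicates 2 and 3, and BL/10 replicate 1 lay among the NOD.B10 libraries. The log2 fold change was 0.28 ± 0.20 (SE), at an edgeR adjusted p of 0.350, a 1.21-fold level with a 95% interval from 0.885-fold to 1.67-fold. Without BL/10 replicate 1, Tnfrsf13b was higher in NOD.B10 with a log2 fold change of 0.53 (adjusted p = 0.0188 from edgeR). The BL/10 libraries left in that fit are those recorded at 36 weeks, so strain and recorded age cannot be told apart in it. Without the 2 libraries recorded at 36 weeks the log2 fold change of Tnfrsf13b was -0.12.

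The level of Tnfrsf13b followed the B cell markers from library to library. The median log2 fold change of the 12 markers was 0.28, and Tnfrsf13b had a larger one than 6 markers and a smaller one than the other 6. By edgeR, 0 of 12 markers were called, beside 17.3% of all tested genes, and 2 had an unadjusted p under 0.05, beside 34.2%. DESeq2 called 1 (17.4% of its tested genes) and limma-voom 2 (21.8%). By edgeR without BL/10 replicate 1, 8 of 12 were called, in a fit that called 26.3% of all tested genes. Over the 6 libraries, log2 CPM of Tnfrsf13b and the mean log2 CPM of the markers had a Pearson r of 0.99 and a Spearman rho of 1.00, and r was 1.00 without BL/10 replicates 2 and 3, the libraries farthest from the median. Relative to the markers, Tnfrsf13b stood at a log2 ratio of -1.09 ± 0.018 (SD, n = 3) in NOD.B10 and -1.10 ± 0.049 (SD, n = 3) in BL/10. The difference was 0.010 (exact permutation p = 0.9, two-sided). The ratio varied less between libraries than the level itself.

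Tnfrsf13c (ENSMUSG00000068105) encodes BAFF-R and lies on chromosome 15 from 82221744 to 82224339 of GRCm38, on the minus strand. It was read at 105, 95.8 and 125 CPM in the NOD.B10 replicates and at 178, 79.8 and 96.7 CPM in the BL/10 replicates. BL/10 replicate 1 was the highest of all libraries, and BL/10 replicate 2 the lowest. The log2 fold change was -0.12 ± 0.28 (SE), at an edgeR adjusted p of 0.796, with a 95% interval from 0.588-fold to 1.44-fold, the widest of the 3 receptors. Without BL/10 replicate 1 its direction turned, with a log2 fold change of 0.30 (adjusted p = 0.156 from edgeR). Without the 2 libraries recorded at 36 weeks it was -0.70 (edgeR adjusted p = 0.0540).

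The values of Tnfrsf13c stood lower against the B cell markers in NOD.B10. Its log2 fold change was smaller than that of 11 of the 12 markers, and only Spib, a transcription factor of B cells and plasmacytoid dendritic cells, had a lower value (-0.28). Relative to the markers, the log2 ratio of Tnfrsf13c was -1.60, -1.52 and -1.50 in the NOD.B10 replicates and -0.97, -1.34 and -1.29 in the BL/10 replicates. All NOD.B10 libraries lay below all BL/10 libraries, with a difference of -0.34, or 0.791-fold. The exact permutation p of 0.1 (two-sided) is the smallest that 3 against 3 libraries can give, and adjusted over the 12 ratios compared it was 0.171. Without BL/10 replicate 1 the difference was -0.23.

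The balance of these receptors can also be read without normalization, from the share of TACI among the counts of TACI and BAFF-R. This share was 58.4% (95% Wilson interval 56.9 to 59.8, of 4229 counts), 57.5% (55.9 to 59.1, of 3674) and 57.2% (55.8 to 58.5, of 5207) in the NOD.B10 replicates. In the BL/10 replicates it was 47.6% (46.4 to 48.9, of 6251), 55.0% (53.1 to 56.9, of 2645) and 52.5% (50.8 to 54.1, of 3580). The NOD.B10 libraries were all higher, although the interval of BL/10 replicate 2 overlapped those of the 3 NOD.B10 libraries. The means were 57.7% ± 0.599 (SD, n = 3) and 51.7% ± 3.75 (SD, n = 3), a difference of 5.99 percentage points (exact permutation p = 0.1, two-sided, the smallest possible). The difference was 3.95 points without BL/10 replicate 1 (exact permutation p = 0.2, the smallest this test can give with that library left out). The intervals cover counting error only.

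**Figure D3:**
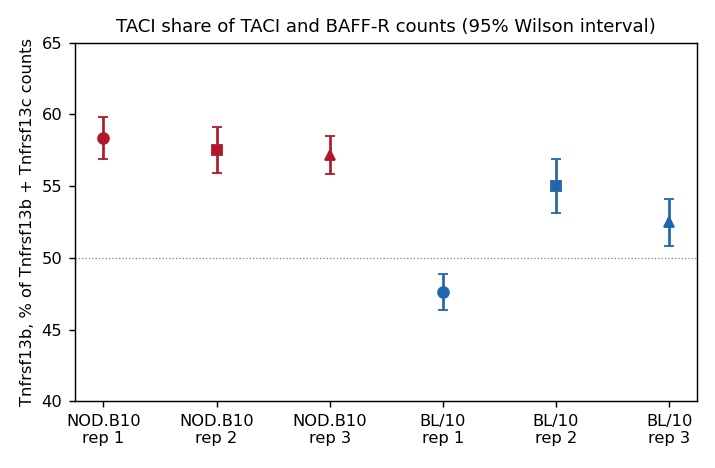
Share of Tnfrsf13b (TACI) among the summed counts of Tnfrsf13b and Tnfrsf13c (BAFF-R), in percent, in each library, with 95% Wilson intervals (red, NOD.B10, blue, BL/10). The axis runs from 40 to 65%, and the dotted line marks equal counts. The 3 NOD.B10 libraries lie between 57.2 and 58.4%, and the BL/10 libraries between 47.6 and 55.0%.

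Tnfrsf17 (ENSMUSG00000022496) encodes BCMA, the receptor that sustains plasma cells, and lies on chromosome 16 from 11313812 to 11320074 of GRCm38. It had 58, 86 and 94 counts in the NOD.B10 replicates and 96, 91 and 98 counts in the BL/10 replicates, or 3.47, 5.28 and 5.28 CPM and 5.21, 6.10 and 5.57 CPM. NOD.B10 replicate 1 was the lowest library, and the other NOD.B10 libraries lay just above BL/10 replicate 1. The log2 fold change was -0.26 ± 0.20 (SE), at an edgeR adjusted p of 0.387, an 0.833-fold level with a 95% interval from 0.604-fold to 1.15-fold. The size of this value rested on NOD.B10 replicate 1, since the log2 fold change was -0.09 without it (edgeR adjusted p = 0.791), and it was -0.15 without the 2 libraries recorded at 36 weeks (edgeR adjusted p = 0.834).

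Markers of plasma cells had higher values in NOD.B10. Of 10 markers, 8 were higher in NOD.B10 (9.11% of all tested genes were higher), and the remaining 2 did not pass the threshold. Mzb1, a chaperone for immunoglobulin assembly, had a log2 fold change of 0.87 ± 0.17 (SE), at an edgeR adjusted p of 0.0137, and Xbp1, the transcription factor of the secretory program, had 0.63 ± 0.11 (SE, adjusted p = 0.0069). The log2 fold changes of the 10 markers ran from 0.52 to 0.87, and that of Tnfrsf17 was below all of them. Their summed level was 3484 to 3997 CPM in NOD.B10 libraries and 2223 to 2803 CPM in BL/10 libraries. Without the 2 BL/10 libraries recorded at 36 weeks, 1 of the 10 markers was called (5.99% of all tested genes), and with a single replicate left out between 4 and 10 were called (10 without BL/10 replicate 1, and 4 without NOD.B10 replicate 3 or BL/10 replicate 3, where 9.37% and 11.3% of all tested genes were called).

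Relative to the plasma cell markers, the log2 ratio of Tnfrsf17 was -4.40, -3.93 and -3.98 in the NOD.B10 replicates and -3.49, -2.92 and -3.12 in the BL/10 replicates. The strains did not overlap, with a difference of -0.92, or 0.528-fold (exact permutation p = 0.1, two-sided, the smallest possible, and 0.171 adjusted over the 12 ratios). This difference lay between -1.08 and -0.77 with each replicate left out. Tnfrsf13c and Tnfrsf13b were also lower in NOD.B10 relative to this list in all libraries, by a log2 difference of -0.68 and -0.33 (exact permutation p = 0.1 for each, and 0.171 adjusted over the 12 ratios). These differences were -0.44 and -0.21 without BL/10 replicate 1. These ratios share the same marker list and are not independent of each other. The mean log2 CPM of the list itself was 6.24 to 6.41 in NOD.B10 libraries and 5.56 to 5.91 in BL/10 libraries. A gene at the same level in all libraries would therefore also have a lower ratio in NOD.B10, without overlap. The lack of overlap alone thus does not show a lower level of a receptor.

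**Figure D4:**
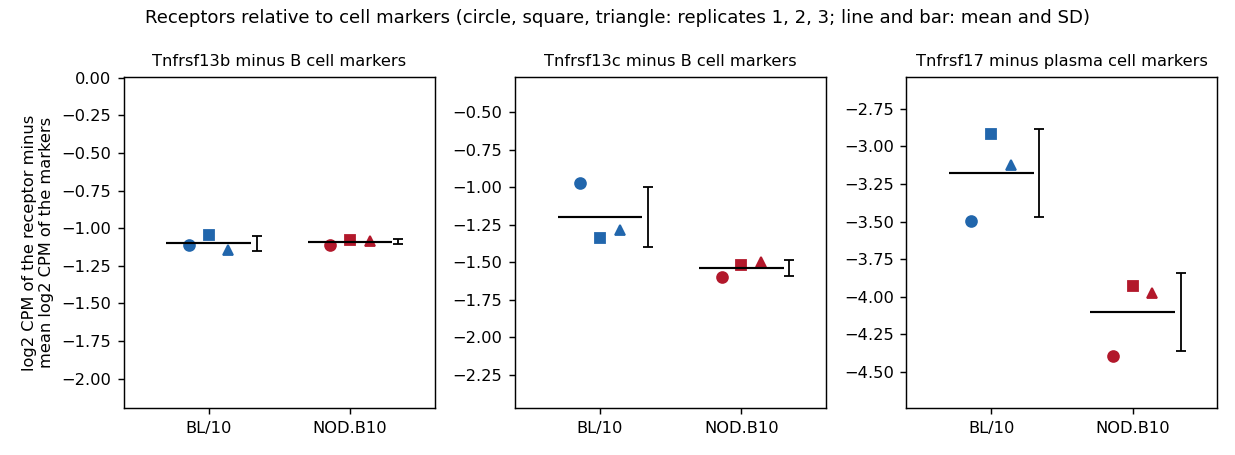
Log2 CPM of Tnfrsf13b and Tnfrsf13c minus the mean log2 CPM of 12 B cell markers, and of Tnfrsf17 minus that of 10 plasma cell markers, per library (symbols, replicates 1, 2 and 3, lines and bars, mean and SD of 3). The 3 panels span the same number of log2 units. The strains overlap for Tnfrsf13b, and lie apart by -0.34 for Tnfrsf13c and by -0.92 for Tnfrsf17.

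To show the sequences behind the 3 receptors, the 250 bases before each RefSeq start are given (GRCm38.p6, 5′ to 3′ on the strand of the gene). They are shown as a description of the receptor genes, and a part of these sequences in the log2 ratios above was not tested. Each 300-base window was searched on both strands for 7 motifs, and capitals mark the matches.
Tnfrsf13b (chr11:61126505-61126754, plus strand): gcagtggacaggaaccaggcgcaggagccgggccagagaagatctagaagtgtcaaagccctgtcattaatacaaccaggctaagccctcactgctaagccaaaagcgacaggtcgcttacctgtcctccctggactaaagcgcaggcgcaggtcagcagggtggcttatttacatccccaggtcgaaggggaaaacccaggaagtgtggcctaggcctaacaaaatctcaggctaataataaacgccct
Tnfrsf13c (chr15:82224381-82224630, minus strand): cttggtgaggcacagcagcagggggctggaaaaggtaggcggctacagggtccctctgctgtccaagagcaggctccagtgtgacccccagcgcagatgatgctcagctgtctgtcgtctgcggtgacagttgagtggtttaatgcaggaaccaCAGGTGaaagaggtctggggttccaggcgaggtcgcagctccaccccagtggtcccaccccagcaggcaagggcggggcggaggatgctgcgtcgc
Tnfrsf17 (chr16:11313559-11313808, plus strand): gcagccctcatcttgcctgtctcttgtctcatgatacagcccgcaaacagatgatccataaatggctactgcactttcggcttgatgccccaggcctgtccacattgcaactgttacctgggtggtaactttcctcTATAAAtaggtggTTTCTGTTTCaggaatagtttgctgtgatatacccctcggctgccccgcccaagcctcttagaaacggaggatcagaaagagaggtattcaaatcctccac

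The E-box CAGGTG, a site of E proteins, was found in the window of Tnfrsf13c and in 20.2% of all promoter windows. The window of Tnfrsf17 held TATAAA, found in 13.6% of windows, and on the opposite strand the interferon-response repeat, found in 3.44%. The window of Tnfrsf13b held none of the motifs. No window of the 5 genes held the kappaB letters GGGAC followed directly by TTTCC (0.155% of windows) or GGGAA followed by TTTCC (0.0883%), the PU.1 letters GAGGAAG (13.6%) or the EBF letters (TCCC, any 2 bases, then GGGA, 0.904%). The motifs do not overlap each other in these windows. The windows differed in base composition, with 61.7% G and C for Tnfrsf13c, 55.3% for Tnfrsf13b and 50.0% for Tnfrsf17, beside a median of 52.7%. These are letters of the C57BL/6J reference, and NOD alleles were not examined.

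Transcripts of TACI and BAFF-R were read above those of BCMA and the ligands in both strains. Levels between genes were compared as CPM per kilobase of exon. In NOD.B10, Tnfrsf13c had 53.9 ± 7.45 CPM per kilobase (SD, n = 3) and Tnfrsf13b 52.3 ± 6.61 (SD, n = 3), followed by Tnfrsf17 with 5.74 ± 1.28 (SD, n = 3), Tnfsf13 with 3.05 ± 0.496 (SD, n = 3) and Tnfsf13b with 2.05 ± 0.195 (SD, n = 3). In BL/10 the order was the same, with 58.5 ± 26.0, 43.0 ± 12.2, 6.91 ± 0.549, 3.54 ± 1.02 and 1.74 ± 0.193 CPM per kilobase (SD, n = 3 each). The libraries of Tnfrsf13c and Tnfrsf13b overlapped in both strains, so their order was not resolved, and all other neighbors in the order were apart. The order at the low end depended on the division by exon length, which was 6868 bases for Tnfsf13b and 815 bases for Tnfrsf17. By CPM alone, Tnfsf13b was at place 3 and Tnfrsf17 at place 5 in both strains. Tnfsf13b had 14.1 CPM in NOD.B10 and 11.98 CPM in BL/10, and Tnfrsf17 had 4.68 and 5.63 CPM. The order also depended on the length used for Tnfsf13. Over its 654 unshared bases, Tnfsf13 had 7.63 ± 1.24 CPM per kilobase (SD, n = 3) in NOD.B10 and 8.86 ± 2.55 (SD, n = 3) in BL/10, which placed it above Tnfrsf17 on the mean, with overlapping libraries in both strains. The level of Tnfsf13 over all of its exons is therefore a lower estimate.

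The ligands and receptors of this system act through a set of shared partners, which were compared from 4 lists. Of the 37 genes in these lists, all were tested, and 3 were higher and 0 lower in NOD.B10 by edgeR, or 8.11% beside 17.3% of all tested genes. At an unadjusted p under 0.05 there were 10 of 37, beside 34.2% of all tested genes. DESeq2 called 4 (17.4% of its tested genes) and limma-voom 6 (21.8%). The strains did not overlap for 12 of the 37 genes (10 with NOD.B10 above and 2 below), beside 38.0% of all tested genes. Their median log2 fold change was 0.14. Without BL/10 replicate 1, 10 of 37 genes were called, in a fit that called 26.3% of all tested genes.

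Downstream signaling genes held 1 call among 16 by edgeR (6.25%, beside 17.3% of all tested genes). At an unadjusted p under 0.05 there were 7, beside 34.2%, while DESeq2 called 2 (17.4% of its tested genes) and limma-voom 4 (21.8%). Leaving out BL/10 replicate 1 gave 6 calls of 16, in a fit that called 26.3% of all tested genes. Ikbkb, the catalytic kinase of canonical NF-kB activation, had 137 CPM in NOD.B10 and 98.6 CPM in BL/10 on the mean (0.47 ± 0.11 on the log2 scale, edgeR adjusted p = 0.0246). Its call was lost without NOD.B10 replicate 1 or 3, BL/10 replicate 2 or 3, or the 2 libraries recorded at 36 weeks (edgeR adjusted p from 0.0633 to 0.220), while its log2 fold change stayed between 0.38 and 0.50 in those fits. The genes next to the receptors did not pass the threshold. Map3k14, the NF-kB inducing kinase that BAFF-R stabilizes, had a log2 fold change of 0.37 ± 0.12 (SE), at an edgeR adjusted p of 0.0750, and Traf3, the adaptor that holds this kinase in check, had 0.23 ± 0.10 (SE, adjusted p = 0.159). For the subunits of the non-canonical pathway, Nfkb2 had 0.21 and Relb -0.04 (adjusted p = 0.399 and 0.878 in edgeR). The median of the list was 0.22, and 13 of 16 values were above 0. Several of these genes are also expressed by T cells. Of 10 T cell markers, 8 were higher in NOD.B10 (9.11% of all tested genes were higher). The part of T cells in these values was not tested.

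Survival genes held 1 call among 8 by edgeR, beside 17.3% of all tested genes. This list held 3 calls without BL/10 replicate 1, in a fit that called 26.3% of all tested genes. Pim2, a serine/threonine kinase induced by BAFF in B cells and also expressed in plasma cells and T cells, had 37.7 CPM in NOD.B10 and 19.6 CPM in BL/10 on the mean. Its log2 fold change was 0.94 ± 0.12 (SE), at an edgeR adjusted p of 0.0020, and the call held in all 16 alternatives tried, with adjusted p up to 0.0374. Mcl1, the survival factor that BCMA maintains in plasma cells, had a log2 fold change of 0.04 (adjusted p = 0.792 in edgeR), and Bcl2 had 0.34 (adjusted p = 0.168). Bcl2l1, which encodes Bcl-xL and is abundant in erythroid cells, had -0.65 ± 0.34 (SE, edgeR adjusted p = 0.210). Of 8 erythroid markers, 1 was called lower by edgeR (8.22% of all tested genes were lower). Their median log2 fold change was -0.49, and 1 of the 8 had a value above 0. The part of erythroid cells in the value of Bcl2l1 was not tested. Bcl2a1b and Bcl2a1d are near-identical copies whose counts are uncertain, with log2 fold changes of -0.05 and 0.33 (adjusted p = 0.905 and 0.271 in edgeR).

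Genes that release the ligands and shed the receptors held no call among 8 by edgeR, beside 17.3% of all tested genes. At an unadjusted p under 0.05 there was 1, Adam17, beside 34.2%. The log2 fold change of Adam17 was 0.27 ± 0.096 (SE), at an edgeR adjusted p of 0.0902. DESeq2 and limma-voom called 0, beside 17.4% and 21.8% of the genes each tested. Furin, the protease that processes BAFF and APRIL, had a log2 fold change of -0.11 ± 0.12 (SE), at an edgeR adjusted p of 0.556, and Adam10, which sheds TACI, had -0.18 ± 0.16 (SE, adjusted p = 0.448). Psen2, Ncstn, Aph1a and Psenen encode subunits of the gamma-secretase that cleaves BCMA, and their log2 fold changes lay between -0.10 and 0.10. Among the other binding partners, Sdc1, a syndecan that binds APRIL and marks plasma cells, was higher in NOD.B10, with 33.2 CPM against 18.9 CPM in BL/10 on the mean (0.81 ± 0.15 on the log2 scale, edgeR adjusted p = 0.0114). It is also on the plasma cell list, and its call was lost without the 2 libraries recorded at 36 weeks (edgeR adjusted p = 0.112). Sdc2, Sdc4, Tnfsf12 and the TWEAK receptor gene Tnfrsf12a did not pass the threshold, with log2 fold changes between -0.08 and 0.58.

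**Figure D5:**
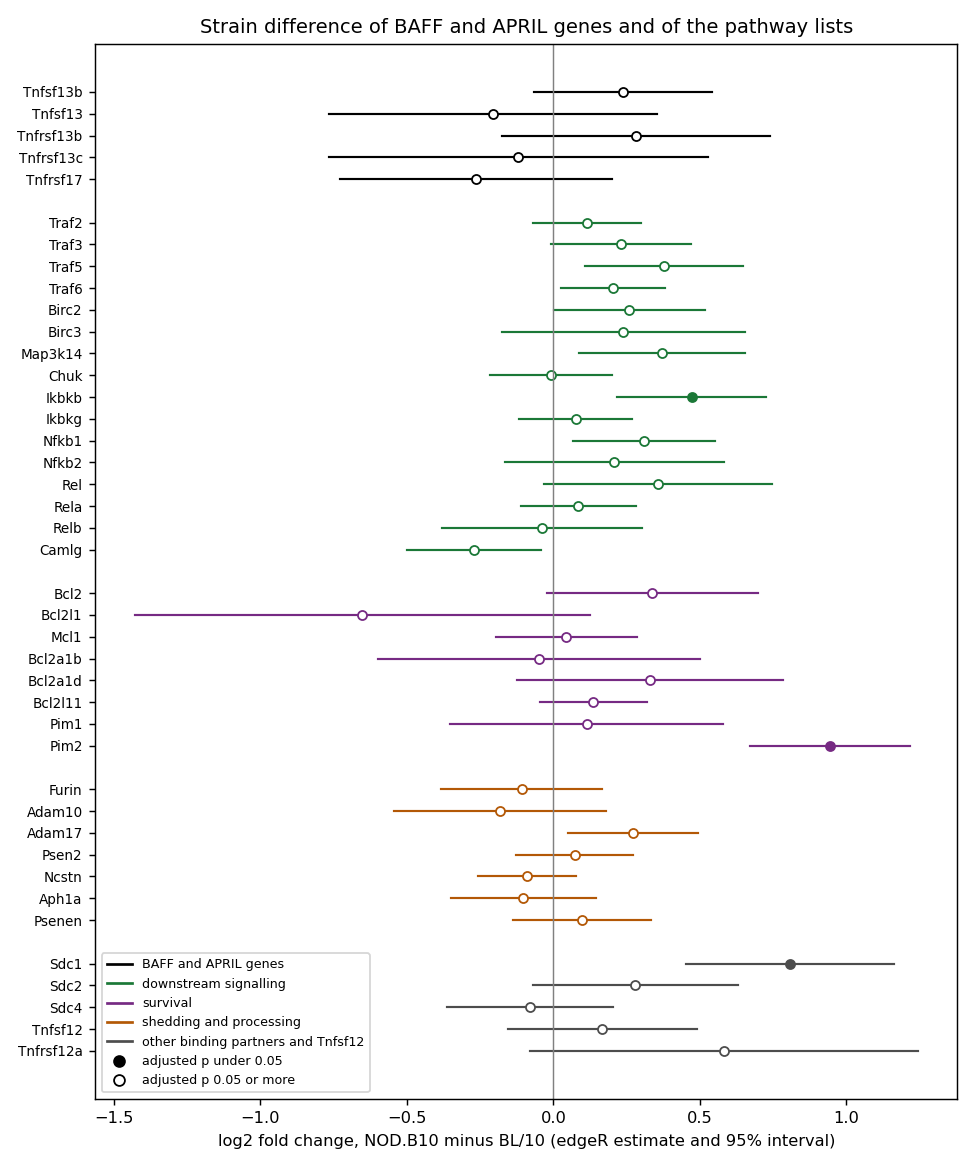
Log2 fold change (NOD.B10 minus BL/10) with its 95% interval from edgeR for the 5 ligand and receptor genes and for genes of the 4 lists. Filled points have an adjusted p under 0.05, which holds for Ikbkb, Pim2 and Sdc1, and the intervals of the 5 ligand and receptor genes all include 0.

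Across libraries, the receptors of B cells varied together and BCMA apart from them. After the mean of each strain was subtracted, log2 CPM of Tnfrsf13b and Tnfrsf13c had a Pearson r of 0.99 over the 6 libraries, and Tnfrsf17 had an r of -0.26 and -0.23 with these receptors. Without this subtraction the Pearson r was 0.81 for Tnfrsf13b with Tnfrsf13c, and -0.48 and -0.16 for Tnfrsf17 with them. Tnfrsf13c had a Pearson r of 0.83 with the mean log2 CPM of the B cell markers, also without subtraction. These values share libraries and depth and are given as a description. Among 11537 genes with a mean of at least 5 CPM, the genes whose pattern over the 6 libraries was most like that of each ligand or receptor were named by Pearson r of log2 CPM. For Tnfrsf13b these were Slc38a1, Ptprcap and Cdc14b (r = 1.00 for each, Spearman rho 1.00, and r of at least 0.97 without BL/10 replicates 2 and 3). For Tnfrsf13c they were Gm8369, Smim14 and Fam3c (r = 0.99 for each, rho from 0.94 to 1.00, and r from 0.92 to 0.98 without BL/10 replicates 1 and 2). For Tnfrsf17 they were Dnaja1, Zfp180 and Prdm10 (r from 0.98 to 0.99, and from 0.56 to 0.80 without NOD.B10 replicate 1 and BL/10 replicate 2, on which the likeness in part rests). For Tnfsf13b they were Sh3gl1, Usp48 and 1110038F14Rik (r = 0.99 for each), and for Tnfsf13 they were Sestd1, Cep19 and Ash2l (r from 0.98 to 0.99). With 6 libraries and 11537 genes, values this high are found for each gene, and they describe these libraries alone.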

How the data were processed

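The authors sequenced RNA from whole spleens, 3 per strain, with single-end reads. The deposited values are raw counts of reads per gene. Per the table's header, they were made with featureCounts version 1.5.1 on exons of Ensembl annotation 84 (GRCm38), without strand and leaving out reads that overlap several genes. The aligner is Tophat2 in the study's methods and HISAT2 version 2.0.5 in the submitters' processing notes. The table also holds gene lengths.

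Libraries were assigned to strains by the description and column name, against the titles. BL/10 replicate 3 was matched by library number and strain, because the end of its description differs from the column name. Symbols were matched for 47224 of 47729 identifiers with GENCODE M21.

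The tests were run in R version 4.3.3, with edgeR version 4.0.16 (filterByExpr, TMM, quasi-likelihood test, Benjamini-Hochberg adjustment over 15330 genes, threshold 0.05), limma version 3.58.1 and DESeq2 version 1.42.0. Each standard error is the log2 fold change divided by the root of its F statistic. Limma-voom was run with a quality weight for each library, so the libraries did not count equally in it. Log2 CPM used a prior count of 2. Ratios were tested by exact permutation, whose smallest p is 0.1. The procedure was tested on simulated counts. The protocol calls the libraries of a strain biological replicates without stating whether mice were pooled. The genes and lists were chosen with earlier results of these data known. The genes named were the ligands and receptors, the list genes past the threshold with list members of known role, and the 3 genes with the highest r to each. The values of 1 gene of these lists are not reported here.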

Additional observations from a re-analysis of the deposited data

How the results depend on the processing

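With BL/10 as the reference, 16 alternatives were tried for each of the 5 genes. Tnfsf13b stayed higher and Tnfrsf17 lower in NOD.B10 in all 16, without passing the threshold. Across fits that left out 1 replicate, the log2 fold change ran from -0.40 to 0.0042 for Tnfsf13, from 0.13 to 0.53 for Tnfrsf13b (past the threshold without BL/10 replicate 1 alone), from -0.35 to 0.30 for Tnfrsf13c, from 0.15 to 0.31 for Tnfsf13b and from -0.36 to -0.09 for Tnfrsf17. Without the 2 libraries recorded at 36 weeks, BL/10 replicate 1 alone was compared, with the assumption that it varies like the NOD.B10 libraries. There Tnfsf13 was at 0.26, Tnfrsf13b at -0.12 and Tnfrsf13c at -0.70 (edgeR adjusted p = 0.0540). With limma-voom, where each library had a quality weight, Tnfrsf13c was at 0.047. The cause of these changes was not tested. Of 37 pathway genes, 3 were called, against 6 with limma-voom, 1 without the libraries at 36 weeks, 1 at an adjusted p under 0.01, and 2 to 10 without a replicate. Over all genes, 2656 were called, against 919 without the libraries at 36 weeks and 1288 to 4035 without a replicate. Of the 12 B cell markers, 0 were called (17.3% of all tested genes). There was 1 with DESeq2 (17.4%), 2 with limma-voom (21.8%) and 8 without BL/10 replicate 1 (26.3%). With no filter there was 1, in a fit that called 3104 genes. Of 96 alternative ratios to marker lists, 94 kept their direction. Leaving out a replicate turned Tnfrsf13b to B cell markers (-0.012 to 0.036) and Tnfsf13b to macrophage markers (-0.17 to 0.090).

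The replicate numbers do not pair the libraries. Deviations from the strain means correlated by 0.032, 0.17 and -0.084 for replicates 1, 2 and 3. With the replicate block, the log2 fold changes of Tnfsf13b, Tnfsf13, Tnfrsf13b, Tnfrsf13c and Tnfrsf17 were 0.24, -0.19, 0.31, -0.039 and -0.28, none past the threshold. That fit called 4 pathway genes and 2889 of all tested genes, against 3 and 2656 without the block.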
